A study of Mus musculus with 4 samples.

Results

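A set of 9 genes that set how much glucose the liver makes, burns and stores as glycogen were described on 4 liver arrays. The 9 genes are G6pc, Pck1, Fbp1, Slc2a2, Pklr, Gys2, Pygl, Ppp1r3b and Ppp1r3c, chosen by name with earlier results of these data known. They are covered by 14 probe sets with a single gene symbol, of 34945 such probe sets and 18193 named genes on the array. The livers came from male mice in 4 groups with 1 Affymetrix 3' expression array each: LASS2-/- on a high-fat diet (HFD), wild type (WT) on the HFD, LASS2-/- on chow, and WT on chow. Lass2, now called Cers2, encodes a ceramide synthase for ceramides with very long acyl chains. Per the labels, the HFD held 60% and the chow 10% of calories from fat, and both were given from 3 weeks of age. How the allele was made, the strain, the age at sampling, whether the mice had been fasted, the time of day, and whether an array held 1 mouse or a pool are not stated in the labels. With 1 array per group there were no replicates, and no value below has an error between animals.

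The liver releases glucose between meals by breaking glycogen down and by building glucose from lactate, glycerol and amino acids. After a meal it takes glucose up through a low-affinity transporter, burns part of it by glycolysis and stores part as glycogen. Glucagon and glucocorticoids raise transcription of the glucose-producing enzymes and insulin lowers it, while glucose itself raises transcription of liver pyruvate kinase. Glycogen synthase is switched on when protein phosphatase 1 removes its phosphates, and a family of glycogen-binding subunits carries that phosphatase to the glycogen particle.

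Values are log2 signals as deposited, and a gene with several probe sets is given by the brightest of them. A ratio is the difference of 2 log2 signals, each raised to the median of its array where it lay below, and 12493 genes that reached the median on at least 1 array form the background. All 9 genes passed that filter, and the named probe set of each was above the median on all 4 arrays. The 4 ratios carry no test. Mean effects over both diets or both genotypes were tested with limma, an additive model fitted to all 12493 genes with Benjamini-Hochberg adjustment. This fit has 1 residual degree of freedom per gene and takes most of its error from genes of like signal, through a trend of the variance on signal. Without that trend 0 of 12493 genes passed for diet (1783 had an unadjusted p under 0.05) and 0 for genotype (820 had one), so every limma call below rests on it. In bulk liver, fewer cells of a type and less RNA per cell cannot be told apart.

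Cers2, the targeted gene, was not lower on both arrays labelled LASS2-/-. The measured log2 signal was 12.32 on the array labelled LASS2-/- HFD, 12.25 on WT HFD, 12.32 on LASS2-/- chow and 12.46 on WT chow. Which part of the transcript its single probe set reads was not determined here, so the genotype labels were not borne out by this gene, and every genotype direction below rests on the labels alone. All 7 measured hepatocyte markers were bright on every array, from 13.48 to 15.77 on the log2 scale. Summed over these markers, linear signal was 196760 on the array labelled LASS2-/- HFD, 208828 on WT HFD, 227256 on LASS2-/- chow and 217618 on WT chow. G6pc, Pck1 and Fbp1 below had this same order of the arrays. The part of this marker order in the values of those genes was not tested. Of 6 macrophage markers, 2 rose with the LASS2-/- label in limma (Marco and Lyz2, the latter kept in 2 of 8 alternatives), where 0.56% of all genes rose. The other 4, Clec4f, Adgre1, Cd68 and Csf1r, did not pass. The median log2 genotype ratio of the 6 was 0.70 on HFD and 0.31 on chow, beside 0.00 and 0.03 for all genes. Their summed linear signal was 18272.5 on the array labelled LASS2-/- HFD against 11725 on WT HFD, and 14560.5 on LASS2-/- chow against 11342.3 on WT chow. Their part in the genotype results below was not tested. With HFD, 1 of 5 stellate cell markers fell (Des), 1 of 5 endothelial markers rose (Cdh5), 1 of 6 macrophage markers rose (Lyz2) and 1 of 7 hepatocyte markers fell (Hnf4a). Over all genes 6.26% rose and 5.04% fell with HFD. The diet calls of Lyz2 and Hnf4a were kept in 3 and 4 of 8 alternatives. None of the measured skeletal muscle (3), adipocyte (1), cholangiocyte (3), erythroid (1) or pancreatic (3) markers passed limma for diet or genotype. Pygm, the muscle glycogen phosphorylase, did not reach the array median on any array.

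The 250 bases before the start site are shown for 4 genes: Ppp1r3c, G6pc and Pklr, which passed the diet test below, and Pck1, whose values ran beside those of G6pc. They are RefSeq promoters on build GRCm38.p6, and 7 of the 9 genes had an entry. Capitals mark the motifs searched on both strands: ACGTCA, the core of the cyclic AMP response element, in Pck1, TGTTTT, a core of insulin response sequences, in G6pc, the carbohydrate response element, a pair of E-box-like motifs at a fixed spacing, in Pklr, and CACGTG, the E-box, in Ppp1r3c.
G6pc, chr11:101367466-101367715, plus strand: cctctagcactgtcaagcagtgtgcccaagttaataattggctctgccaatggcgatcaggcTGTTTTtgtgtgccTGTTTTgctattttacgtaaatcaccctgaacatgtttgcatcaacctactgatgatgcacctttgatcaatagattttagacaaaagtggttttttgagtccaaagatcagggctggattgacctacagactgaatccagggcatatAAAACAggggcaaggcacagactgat
Pck1, chr2:173152823-173153072, plus strand: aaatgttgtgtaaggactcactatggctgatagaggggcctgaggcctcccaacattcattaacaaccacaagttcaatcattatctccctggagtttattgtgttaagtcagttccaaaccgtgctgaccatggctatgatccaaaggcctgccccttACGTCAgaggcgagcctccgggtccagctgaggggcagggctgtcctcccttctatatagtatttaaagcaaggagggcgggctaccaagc
Pklr, chr3:89136373-89136622, plus strand, the downstream of its 2 listed start sites: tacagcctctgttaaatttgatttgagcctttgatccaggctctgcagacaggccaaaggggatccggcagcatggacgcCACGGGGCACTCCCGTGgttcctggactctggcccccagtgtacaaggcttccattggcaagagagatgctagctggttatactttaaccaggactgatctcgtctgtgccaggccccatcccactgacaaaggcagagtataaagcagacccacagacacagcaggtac
Ppp1r3c, chr19:36736605-36736854, minus strand: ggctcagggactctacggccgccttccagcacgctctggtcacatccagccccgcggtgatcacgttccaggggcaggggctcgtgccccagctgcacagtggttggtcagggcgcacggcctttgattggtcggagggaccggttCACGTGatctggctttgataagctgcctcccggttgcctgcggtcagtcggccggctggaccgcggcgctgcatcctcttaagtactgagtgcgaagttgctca
The ACGTCA match of Pck1 began 91 bases before the start site, and 6.47% of 32851 promoter entries held that motif in the same window. G6pc held TGTTTT or its complement at 188, 174 and 26 bases before the start, the last overlapping its TATAAA match at 29, and 19.8% of entries held such a match. The carbohydrate response element of Pklr began 170 bases before the start and was found in 13 entries, 0.0396% of all. The E-box of Ppp1r3c began 104 bases before the start, and 6.02% of entries held one. None of the other members with an entry held any of these 4 motifs in the window, and a match is a run of letters, not a measured site.

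The glucose-producing members, G6pc, Pck1 and Fbp1, were highest on the array labelled LASS2-/- chow and lowest on the array labelled LASS2-/- HFD. Not all genes of glucose production followed. Pcx, given below, was lowest on LASS2-/- chow, and Slc37a4 was highest on WT chow. G6pc (chr11:101367716-101377903) encodes the catalytic subunit of glucose-6-phosphatase, which frees glucose in the last step shared by gluconeogenesis and glycogen breakdown. In log2 units its signal was 13.03 on the array labelled LASS2-/- HFD, 13.46 on WT HFD, 14.28 on LASS2-/- chow and 13.68 on WT chow. LASS2-/- thus stood below WT on HFD and above it on chow, and HFD stood below chow in both genotypes. The array labelled LASS2-/- HFD was 2.37-fold below LASS2-/- chow, whereas WT HFD was 1.17-fold below WT chow. The LASS2-/- array was 1.34-fold below WT on HFD and 1.51-fold above WT on chow.

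Pck1 (chr2:173153073-173159274) encodes cytosolic phosphoenolpyruvate carboxykinase, an early committed enzyme of gluconeogenesis. Its log2 signal was 14.56 on the array labelled LASS2-/- HFD, 14.83 on WT HFD, 15.15 on LASS2-/- chow and 14.85 on WT chow. Here too LASS2-/- chow was highest and LASS2-/- HFD lowest, and the WT arrays differed by 0.03 log2. The second probe set of Pck1 had 11.53 on the array labelled LASS2-/- HFD, 11.94 on WT HFD, 12.38 on LASS2-/- chow and 12.27 on WT chow, again with LASS2-/- chow highest and LASS2-/- HFD lowest. The third reached the median on 1 array and gives no usable ratio.

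Fbp1 (chr13:62864753-62888298) encodes fructose-1,6-bisphosphatase, which reverses a committed step of glycolysis. The measured log2 signal was 15.16 on the array labelled LASS2-/- HFD, 15.30 on WT HFD, 15.49 on LASS2-/- chow and 15.39 on WT chow. The order was that of G6pc with a smaller range, and its genotype ratio of 0.10 on chow became -0.0031 with arrays scaled to equal medians. Higher on chow and lower on HFD in LASS2-/- was the pattern of 21.7% of all genes at any size. The difference of the genotype ratio between diets was -1.02 log2 for G6pc, -0.56 for Pck1 and -0.25 for Fbp1. A difference of at least that size in either direction was seen in 4.03%, 16.8% and 45.8% of all genes, and in 0.7%, 2.5% and 17.2% of the 1000 genes nearest in mean signal. Among the hepatocyte markers the difference was -0.24 log2 for Alb, -0.23 for Apoa1, -0.20 for Apob and -0.16 for Hnf4a. It was -0.05 for Asgr1, -0.04 for Tat and 0.01 for Ttr. The value of Fbp1 was thus close to those of Alb, Apoa1 and Apob. This difference has no test, since no degree of freedom is left for it.

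In the limma fit G6pc fell with HFD, by 0.74 ± 0.16 log2 over both genotypes (SE, adjusted p = 0.00767). With robust moderation its adjusted p was 0.551, and most of the mean came from the arrays labelled LASS2-/-, where the log2 diet ratio was -1.25 against -0.23 in WT. Pck1 had a mean diet effect of -0.31 ± 0.10 (limma adjusted p = 0.0766) and Fbp1 one of -0.21 ± 0.08 (limma adjusted p = 0.101), neither passing. With the mean of its probe sets Pck1 passed for diet, at -0.40 log2 (limma adjusted p = 0.0453). For genotype, limma gave effects near 0 for all 3, from -0.02 to 0.08, as the ratios of the diets had opposite signs.

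**Figure D1:**
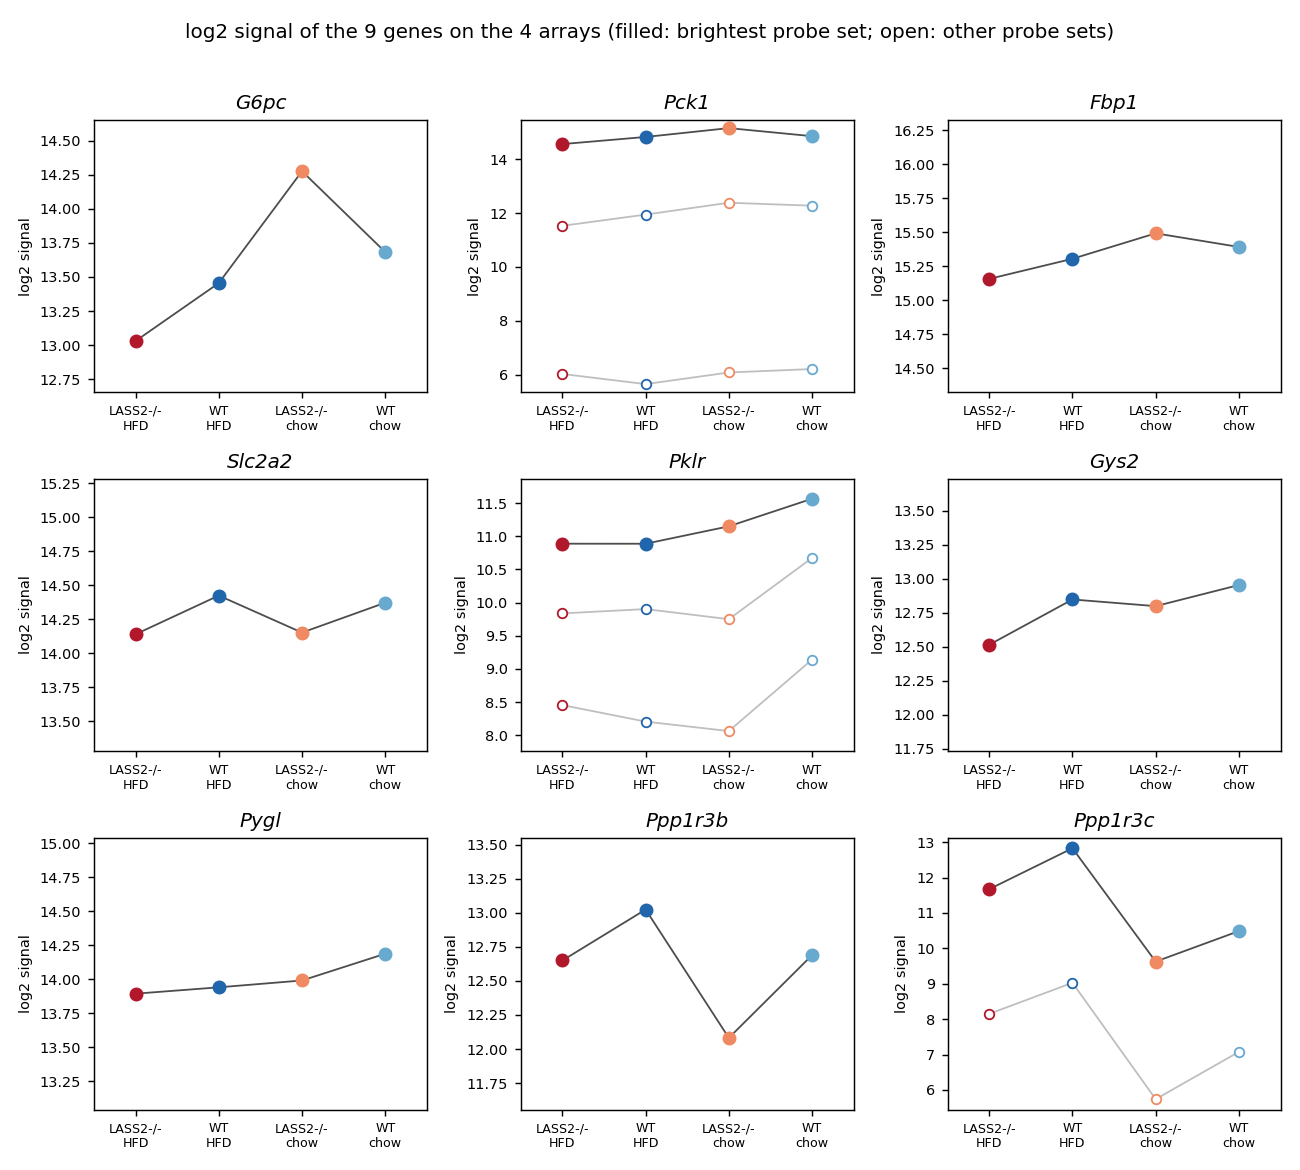
Log2 signal (vertical axes, each panel with its own range) of the 9 genes on the arrays labelled LASS2-/- HFD, WT HFD, LASS2-/- chow and WT chow, 1 array each. Filled points are the brightest probe set of a gene and open points the others, and lines only join the points of 1 probe set. Ppp1r3c spans 3.20 log2 units and G6pc 1.25, and Slc2a2 spans 0.28.

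Slc2a2 (chr3:28697903-28728361) encodes GLUT2, the glucose transporter of the hepatocyte membrane. In log2 units its signal was 14.14 on the array labelled LASS2-/- HFD, 14.42 on WT HFD, 14.15 on LASS2-/- chow and 14.37 on WT chow. Both arrays labelled LASS2-/- lay below both WT arrays, by a factor of 1.22 on HFD and 1.16 on chow, and the diets differed by at most 0.05 log2. The mean genotype effect was -0.25 ± 0.08 log2 and did not pass (limma adjusted p = 0.192). The diet effect was 0.02 ± 0.08 (limma adjusted p = 0.908).

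Pklr (chr3:89136122-89146815) encodes the liver and red cell pyruvate kinase, the last enzyme of glycolysis. Its log2 signal was 10.89 on the arrays labelled LASS2-/- HFD and WT HFD, 11.15 on LASS2-/- chow and 11.57 on WT chow. The WT chow array was the highest on all 3 probe sets, and the order of the other arrays differed between them. The second probe set had 9.84 on LASS2-/- HFD, 9.90 on WT HFD, 9.75 on LASS2-/- chow and 10.67 on WT chow. The third had 8.46 on LASS2-/- HFD, 8.21 on WT HFD, 8.06 on LASS2-/- chow and 9.14 on WT chow. On chow, LASS2-/- was 1.33-fold, 1.90-fold and 2.11-fold below WT on the 3 probe sets, and on HFD the log2 genotype ratios were 0.00, -0.06 and 0.25.

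Pklr fell with HFD by 0.47 ± 0.12 log2 over both genotypes on the brightest probe set (limma adjusted p = 0.0223). WT HFD was 1.60-fold below WT chow, and LASS2-/- HFD was 1.20-fold below LASS2-/- chow. On the other 2 probe sets LASS2-/- HFD was above LASS2-/- chow, by 0.09 and 0.39 log2, and with the mean of the probe sets limma gave adjusted p = 0.277. With equal medians adjusted p was 0.114.

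The glycogen enzymes differed little. Gys2 (chr6:142422612-142473130), liver glycogen synthase, measured 12.51 log2 on the array labelled LASS2-/- HFD, 12.85 on WT HFD, 12.80 on LASS2-/- chow and 12.95 on WT chow. LASS2-/- was below WT on both diets, by 0.33 and 0.15 log2, and HFD was below chow in both genotypes, by 0.28 in LASS2-/- and 0.11 in WT. Pygl (chr12:70190815-70227683), liver glycogen phosphorylase, which releases glucose units from glycogen, had 13.89 on LASS2-/- HFD, 13.94 on WT HFD, 13.99 on LASS2-/- chow and 14.19 on WT chow. Its WT chow array was the highest and the other 3 lay within 0.10 log2 of each other. Neither gene passed limma for genotype (adjusted p = 0.327 for Gys2 and 0.691 for Pygl) or for diet (0.208 and 0.211).

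Both glycogen-targeting subunits of protein phosphatase 1 among the members were higher on HFD than on chow and lower in LASS2-/- than in WT. Ppp1r3c (chr19:36731731-36736604) encodes PTG, which holds the phosphatase on glycogen together with its substrates. The measured log2 signal was 11.67 on the array labelled LASS2-/- HFD, 12.83 on WT HFD, 9.63 on LASS2-/- chow and 10.49 on WT chow. Both HFD arrays lay above both chow arrays, and LASS2-/- lay below WT on each diet. HFD was 4.13-fold above chow in LASS2-/- and 5.07-fold in WT. The array labelled LASS2-/- was 2.23-fold below WT on HFD and 1.82-fold below on chow.

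The second Ppp1r3c probe set had 8.15 on the array labelled LASS2-/- HFD, 9.03 on WT HFD, 5.74 on LASS2-/- chow and 7.08 on WT chow. This is the same order of the 4 arrays, with the LASS2-/- chow array under its median. There LASS2-/- was 1.84-fold below WT on HFD and at least 1.74-fold below on chow, and HFD was at least 3.66-fold above chow in LASS2-/- and 3.87-fold in WT. Over both diets Ppp1r3c fell by 1.01 ± 0.11 log2 with the LASS2-/- label (limma adjusted p = 0.000998), and over both genotypes it rose by 2.19 ± 0.11 with HFD (limma adjusted p = 3.74e-08). The array labelled LASS2-/- HFD still lay above WT chow.

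Ppp1r3b (chr8:35375694-35388139) encodes GL, the targeting subunit most typical of liver, which in rat and mouse also binds active phosphorylase. In log2 units its signal was 12.65 on the array labelled LASS2-/- HFD, 13.02 on WT HFD, 12.08 on LASS2-/- chow and 12.69 on WT chow. The directions were those of Ppp1r3c at a smaller size, and LASS2-/- HFD lay just below WT chow. HFD was 1.48-fold above chow in LASS2-/- and 1.26-fold in WT, and LASS2-/- was 1.30-fold below WT on HFD and 1.52-fold below on chow. Ppp1r3b rose with HFD by 0.45 ± 0.09 log2 (limma adjusted p = 0.00621). It fell with the LASS2-/- label by 0.49 ± 0.09 (limma adjusted p = 0.0284), a call lost with quantile normalization (adjusted p = 0.0961), with equal medians (0.115), without a filter (0.0671) and with the mean of probe sets (0.0504).

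**Figure D2:**
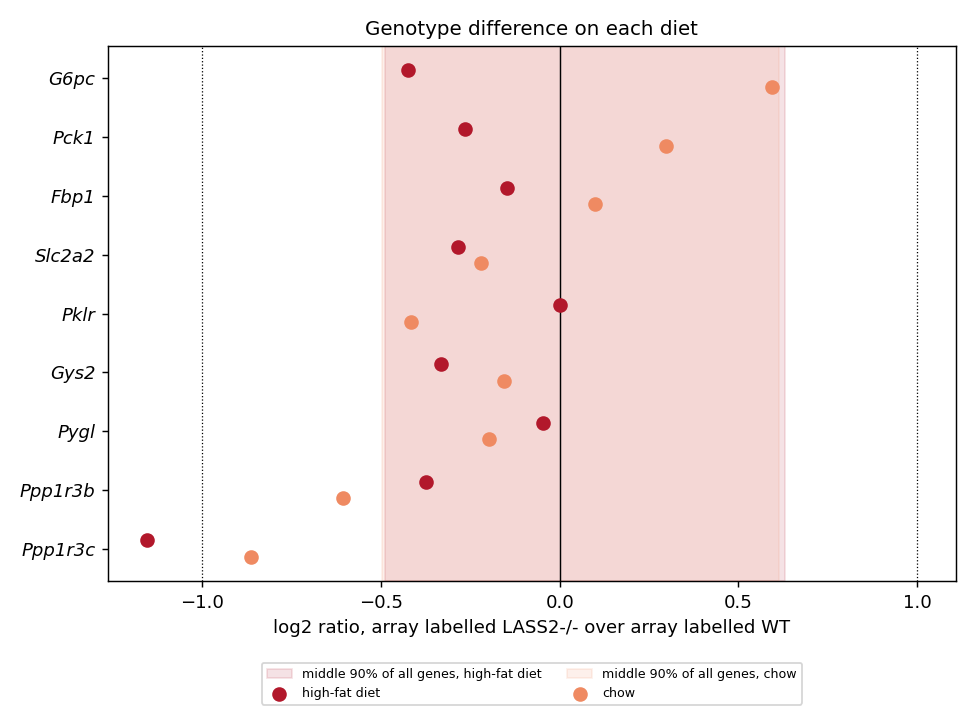
Log2 ratio of the array labelled LASS2-/- over the array labelled WT (horizontal axis) for each of the 9 genes on HFD (dark red) and on chow (orange), 1 array per group. Shaded bands run from the 5th to the 95th percentile of all genes, dotted lines mark 2-fold, and Ppp1r3c lies below the band on both diets while G6pc, Pck1 and Fbp1 change sign between the diets.

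Between the genotypes, all 5 members of glucose transport and glycogen metabolism were lower on the array labelled LASS2-/- on both diets. These were Slc2a2, Gys2, Pygl, Ppp1r3b and Ppp1r3c, 5 of 9 members, against 24.0% of all genes at any size. The log2 ratio of Pygl on HFD was only -0.05, and Slc2a2, Gys2 and Pygl did not pass limma for genotype. The diets share no array in this comparison. On HFD 1 of 9, Ppp1r3c, was at least 2-fold lower, where 0.488% of all genes were, and 0 of 9 were at least 2-fold higher, where 1.47% were. On chow 0 of 9 were 2-fold apart, where 0.424% of genes were lower and 1.16% higher. The median log2 genotype ratio of the 9 was -0.28 on HFD and -0.20 on chow, beside 0.00 and 0.03 for all genes. Scaling the arrays to equal medians moved the chow median of all genes to -0.07. It also moved the ratio of Pygl, the median member on chow, from -0.20 to -0.30. Over both diets 2 of 9 members fell in limma, where 0.352% of genes did, and 0 rose, where 0.56% did.

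With HFD, 6 of 9 members were lower in both genotypes at any size (G6pc, Pck1, Fbp1, Pklr, Gys2 and Pygl), against 30.4% of all genes, and Ppp1r3b and Ppp1r3c were higher in both, against 35.1%. With quantile normalization Fbp1 and Pck1 had log2 diet ratios of 0.01 and 0.06 in WT and Pygl one of 0.02 in LASS2-/-, so for these the direction depended on scaling. For Pklr it depended on the probe set, and the mean of its probe sets gave 0.07 in LASS2-/-. At least 2-fold apart in LASS2-/- were Ppp1r3c, higher, where 3.11% of genes were, and G6pc, lower, where 1.89% were. In WT it was Ppp1r3c, higher, where 2.13% were, and 0 of 9 lower, where 1.24% were. The median log2 diet ratio of the 9 was -0.26 in LASS2-/- and -0.09 in WT, beside -0.01 and 0.02 for all genes. In limma 2 of 9 rose (6.26% of all genes) and 2 of 9 fell (5.04%).

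**Figure D3:**
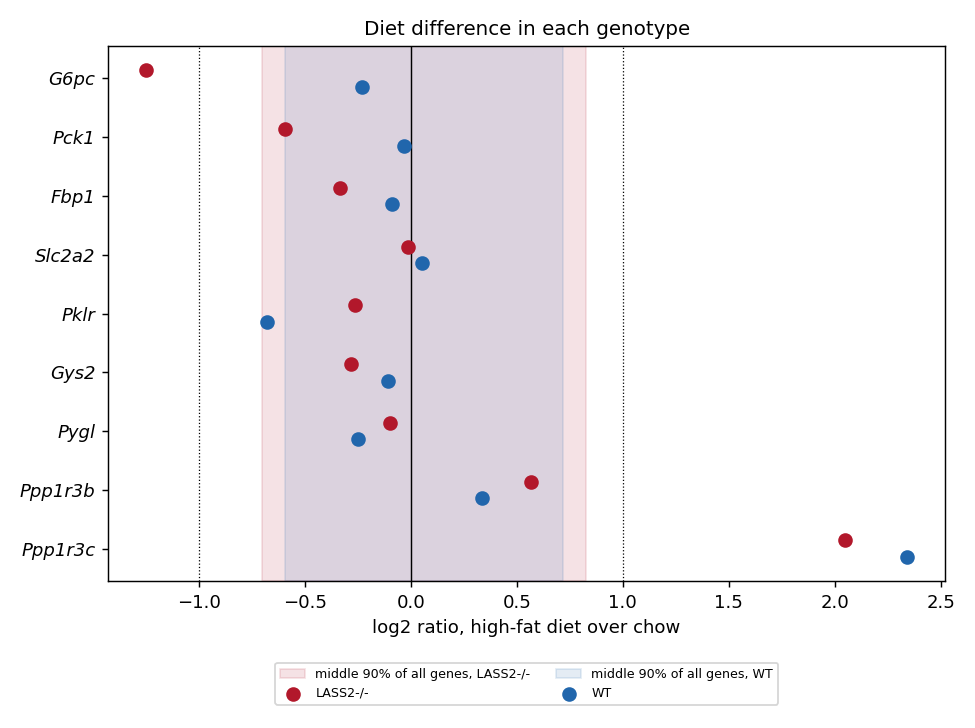
Log2 ratio of HFD over chow (horizontal axis) for each of the 9 genes on the arrays labelled LASS2-/- (red) and WT (blue), 1 array per group. Shaded bands run from the 5th to the 95th percentile of all genes and dotted lines mark 2-fold. Ppp1r3c lies above 2.0 in both genotypes, G6pc lies below -1 in LASS2-/-, and the remaining members lie within 2-fold.

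Of 22 other measured genes of glycogen metabolism, 4 rose and 1 fell with HFD in limma, where 6.26% of all genes rose and 5.04% fell. For genotype 0 of 22 passed and 3 had an unadjusted limma p under 0.05, as had 10.4% of all genes. The list's median log2 diet ratio was 0.27 in LASS2-/- and 0.08 in WT. The gene that fell was Ppp1r3g, another targeting subunit, which in mouse liver is raised by fasting. Its log2 signal was 8.95 on the array labelled LASS2-/- HFD, 8.47 on WT HFD, 10.41 on LASS2-/- chow and 10.21 on WT chow. Both HFD arrays were therefore below both chow arrays, the reverse of Ppp1r3c and Ppp1r3b, and the mean diet effect was -1.60 ± 0.15 log2 (limma adjusted p = 7.16e-06). Stbd1, which tethers glycogen to membranes, rose by 0.82 ± 0.10 (limma adjusted p = 9.31e-05). Gyg, glycogenin, the protein primer of glycogen, rose by 0.71 ± 0.17 (limma adjusted p = 0.0138), a call not made without the probe sets ending in _x_at or _s_at. Ppp1ca, a catalytic subunit of the phosphatase, rose by 0.41 ± 0.10 (limma adjusted p = 0.0142), and Pgm1, phosphoglucomutase, by 0.35 ± 0.09 (limma adjusted p = 0.0277). The call of Pgm1 was kept in 5 of 8 alternatives. Ppp1r3e, a further targeting subunit, had 8.03 on LASS2-/- HFD, 8.11 on WT HFD, 7.99 on LASS2-/- chow and 8.45 on WT chow and did not pass.

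Of 32 measured enzymes of glycolysis and gluconeogenesis other than the members, 3 rose and 1 fell with HFD. Over all genes 6.26% rose and 5.04% fell. For genotype 0 of 32 passed and 5 had an unadjusted limma p under 0.05, as had 10.4% of all genes. The median log2 genotype ratio of the 32 was -0.07 on HFD and -0.02 on chow. Hk2, a hexokinase scarce in normal hepatocytes, rose by 1.10 ± 0.25 with HFD (limma adjusted p = 0.0102). Gpd1, cytosolic glycerol-3-phosphate dehydrogenase, which links glycolysis to glycerol and triglyceride, rose by 1.01 ± 0.11 (limma adjusted p = 4.66e-05), a call lost with the mean of probe sets. Gpd2, the mitochondrial form, rose by 0.48 ± 0.11 (limma adjusted p = 0.0106). Got1, the cytosolic aspartate aminotransferase that supplies oxaloacetate for gluconeogenesis, fell by 1.01 ± 0.10 (limma adjusted p = 2.04e-05). Pcx, pyruvate carboxylase, the entry of pyruvate into gluconeogenesis, was not lower with HFD: it had 13.22 on LASS2-/- HFD, 13.26 on WT HFD, 12.89 on LASS2-/- chow and 13.08 on WT chow. Slc37a4, the glucose-6-phosphate carrier that feeds the phosphatase encoded by G6pc, spanned 12.74 on LASS2-/- HFD to 13.03 on WT chow.

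Of 24 measured regulators of glucose output and of the carbohydrate response, 2 rose and 9 fell with HFD in limma. Over all genes 6.26% rose and 5.04% fell. The 2 that rose were Srebf1, by 0.85 ± 0.18 (limma adjusted p = 0.00797), and Ppara, by 0.39 ± 0.09 (limma adjusted p = 0.0133). The diet call of Srebf1 was lost with robust moderation. For genotype 1 rose (Onecut1), where 0.56% of all genes did, and 1 fell (Srebf1), where 0.352% did. These genotype calls were kept in 3 and 4 of 8 alternatives. The median log2 diet ratio of the 24 was -0.32 in LASS2-/- and -0.19 in WT. Onecut1, a hepatocyte transcription factor, changed most with HFD in this list. It measured 9.35 on the array labelled LASS2-/- HFD, 7.98 on WT HFD, 11.45 on LASS2-/- chow and 10.88 on WT chow, and fell by 2.50 ± 0.17 (limma adjusted p = 5.67e-07). Crtc2, a coactivator of cyclic AMP response element binding protein, fell by 0.93 ± 0.28 (limma adjusted p = 0.0473), a call kept in 2 of 8 alternatives. Mlxipl, which encodes ChREBP, the glucose-responsive factor known to bind the carbohydrate response element of Pklr, had 11.61 on the array labelled LASS2-/- HFD, 12.05 on WT HFD, 12.35 on LASS2-/- chow and 12.61 on WT chow. It fell with HFD by 0.65 ± 0.10 (limma adjusted p = 0.000521), and its WT chow array was the highest, as for Pklr. The log2 genotype ratio of Mlxipl was -0.26 on chow, beside -0.42, -0.92 and -1.08 on the Pklr probe sets. On HFD it was -0.43, beside 0.00, -0.06 and 0.25. A link between Mlxipl and Pklr was not tested. Ppargc1a, a coactivator of gluconeogenic genes, fell by 0.66 ± 0.13 (limma adjusted p = 0.00418), and Sik1, a kinase induced by cyclic AMP, fell by 1.09 ± 0.21 (limma adjusted p = 0.00384). The call of Sik1 was lost with the mean of probe sets. Irs2, the insulin receptor substrate whose transcript insulin lowers, fell by 1.17 ± 0.24 (limma adjusted p = 0.0056). Mlxipl, Ppargc1a and Ppara were named after their values were seen.

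Of 9 measured fasting-response genes, 1 rose and 5 fell with HFD, where 6.26% of all genes rose and 5.04% fell. Pdk4 rose with the LASS2-/- label by 1.25 ± 0.17 log2 (limma adjusted p = 0.00267), a call kept in 5 of 8 alternatives. On chow the median log2 genotype ratio of this list was 0.56, and 3 of 9 were at least 2-fold higher in LASS2-/-, where 1.16% of all genes were. On HFD it was -0.26. Pdk4, which shuts pyruvate out of the citric acid cycle, had 9.67 on the array labelled LASS2-/- HFD, 8.84 on WT HFD, 11.64 on LASS2-/- chow and 9.98 on WT chow. Igfbp1, an insulin-repressed plasma protein gene, had 13.27 on LASS2-/- HFD, 13.12 on WT HFD, 14.95 on LASS2-/- chow and 13.73 on WT chow. Txnip, a glucose-responsive inhibitor of thioredoxin, had 11.65 on LASS2-/- HFD, 11.59 on WT HFD, 12.93 on LASS2-/- chow and 12.24 on WT chow. In these 3, and in Acot1 and Angptl4, the LASS2-/- chow array was the highest of the 4, as for G6pc, Pck1 and Fbp1. It was not the highest in the other 4 of 9, Tat, Fgf21, Cyp4a14 and Cpt1a. The share of all genes that were highest on that array is not given here. With HFD, Pdk4 fell by 1.55 ± 0.17, Igfbp1 by 1.14 ± 0.17, Txnip by 0.97 ± 0.13 and Acot1, an acyl-CoA thioesterase, by 0.70 ± 0.16, while Cyp4a14, a fatty acid hydroxylase, rose by 0.95 ± 0.16 (highest of these limma adjusted p = 0.0133). Angptl4 fell by 0.42 ± 0.11 (limma adjusted p = 0.0263). The diet calls of Acot1 and Angptl4 were kept in 4 and 2 of 8 alternatives, and those of Igfbp1 and Cyp4a14 were lost with robust moderation. Srebf1, which insulin raises, had 12.66 on LASS2-/- HFD, 13.22 on WT HFD, 11.21 on LASS2-/- chow and 12.97 on WT chow. Its lowest array was LASS2-/- chow, as for Ppp1r3b and Ppp1r3c, and the share of all genes lowest there is not given here. Of 11 measured genes of pyruvate entry into mitochondria, 2 rose with HFD (Slc16a7 by 0.40 and Mpc1, a subunit of the mitochondrial pyruvate carrier, by 0.32) and 3 fell (Pdk4, Slc16a1 by 0.42 and Pdk1 by 0.30). Over all genes 6.26% rose and 5.04% fell, and the calls of Pdk1 and Mpc1 were kept in 3 and 6 of 8 alternatives. The part of feeding state at sampling in these values was not tested.

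**Figure D4:**
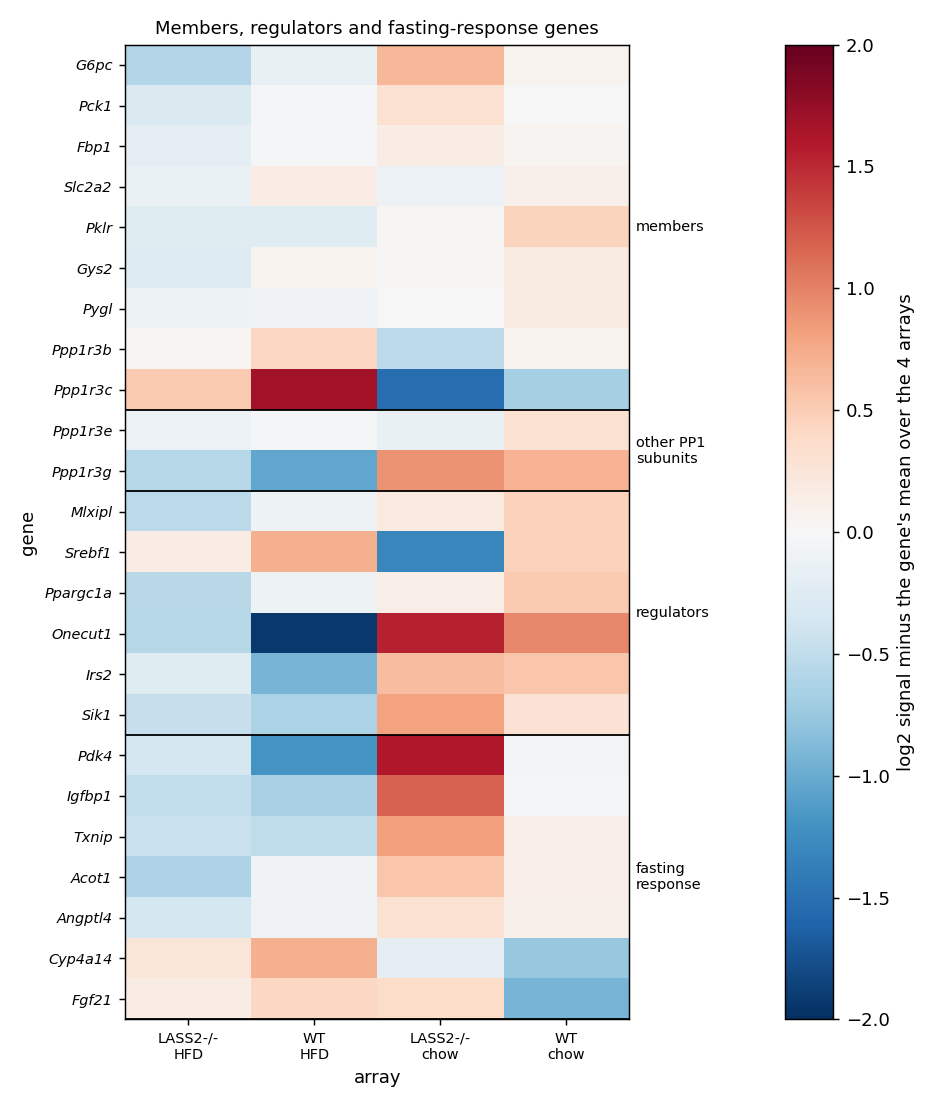
Log2 signal minus each gene's mean over the 4 arrays (colour, red higher and blue lower) for the 9 members, 2 other phosphatase targeting subunits, 6 regulators and 7 fasting-response genes, the last 3 groups picked after their values were seen. On the array labelled LASS2-/- chow, G6pc stands at 0.67, Pdk4 at 1.60 and Igfbp1 at 1.18 above their means, while Ppp1r3c stands at -1.53 and Srebf1 at -1.30.

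Gluconeogenic enzymes are more abundant in periportal than in pericentral hepatocytes, so markers of both zones were set beside them. Of 6 measured periportal markers, which include Pck1 itself, 0 rose and 2 fell with HFD (Hal and Cyp2f2), with median log2 diet ratios of -0.33 in LASS2-/- and 0.06 in WT. Of 8 pericentral markers, 3 rose and 0 fell (Rhbg, Glul and Slc1a2), with medians of 0.58 in LASS2-/- and 0.32 in WT. The call of Slc1a2 was kept in 5 of 8 alternatives. Over all genes 6.26% rose and 5.04% fell. Not all markers of a zone moved alike. Among pericentral markers, the log2 diet ratios in LASS2-/- and WT were -0.25 and -0.01 for Cyp2e1, and 0.20 and -0.24 for Cyp1a2. Among periportal markers they were 0.15 and 0.37 for Aldh1b1, and 0.12 and 0.15 for Hsd17b13. Hal, histidine ammonia-lyase, fell by 0.55 ± 0.10 (limma adjusted p = 0.0024), and Glul, glutamine synthetase, rose by 0.53 ± 0.09 (limma adjusted p = 0.00102). Hal also fell with the LASS2-/- label, by 0.46 ± 0.10 (limma adjusted p = 0.0491), a call kept in 3 of 8 alternatives. The part of these zone marker values in the diet values of G6pc and Pck1 was not tested.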

How the data were processed

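Liver RNA of male mice was hybridised to 4 arrays. The authors deposited log2 signals, 1 per probe set and array, made with MAS5 per the submitters' processing notes. Its version and scaling target are not given in the sources. Trimmed means of the linear signal were 496.0 to 496.2 on the 4 arrays, so no further scaling was applied. Precision is limited by having 4 arrays.

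Of 45037 probe sets, 34945 had 1 gene symbol, 932 had several and 9160 were not named here. Symbols were updated through Entrez numbers on GRCm38.p6. A gene was kept when a probe set reached the array median on at least 1 array, and ratios were floored at these medians (log2 6.17 to 6.28). A fold is given as at least N-fold where 1 array was under its median. Effects were fitted with limma 3.58.1 in R 4.3.3 with a variance trend (prior degrees of freedom 12.7), and an adjusted p below 0.05 passed. SEs are these moderated ones. The fit was also run on simulated data, whose outcome is not given here. Tables were made with pandas 2.3.3 and numpy 2.4.6 under Python 3.11.15, and plots with matplotlib 3.10.9.

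The members and the 17 gene lists were chosen with earlier results of these data known. Of 188 listed genes, 153 entered. The rule named all members, Cers2, and, in the 8 pathway, clock and zone lists, up to 6 genes each by size of the limma effect that passed limma or were 2-fold apart on both independent ratios. Genes named for comparison that did not meet it were chosen after their values were seen.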

Additional observations from a re-analysis of the deposited data

Results flagged for a closer look

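The genotype difference had opposite signs on the diets for 3 members, and this was not tested. The log2 ratio of the array labelled LASS2-/- over the array labelled WT was -0.43 on HFD and 0.59 on chow for G6pc. It was -0.26 on HFD and 0.30 on chow for Pck1, and the second Pck1 probe set had -0.42 and 0.11. For Fbp1 it was -0.15 on HFD and 0.10 on chow, and the chow value became -0.0031 with arrays scaled to equal medians. Each value compares 1 array with 1 array.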

How the results depend on the processing

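Of 216 member ratios recomputed under 6 alternatives, 132 could not move (all of those at the 1.5-fold threshold, with the 25th-percentile floor and without _x_at or _s_at probe sets, and those of genes with 1 probe set under the mean of probe sets). Of the 84 that moved, 75 kept their sign and 9 did not. Without the trend limma called 0 genes for diet and 0 for genotype, and 0 members for either. For genotype, the 114 genes of limma became 23 with quantile normalization, 22 with equal medians, 63 with the mean of probe sets and 52 with no filter on signal, and the 2 members became 1 (Ppp1r3c) in each of these. For diet, 1412 genes became 898 with equal medians. With floored values, without probe sets ending in _x_at or _s_at and with robust moderation all counts stayed within 1.5 times. Genes at least 2-fold apart, 245 and 198 for genotype on HFD and chow and 625 and 421 for diet in LASS2-/- and WT, became 1576, 1789, 2280 and 1858 with the floor and filter at the 25th percentile, where dimmer genes enter, and 1131, 1129, 2167 and 1601 at a 1.5-fold threshold. At 1.5-fold, 3 members were apart for genotype on chow and 2 for diet in WT, and with the mean of probe sets 1 (Ppp1r3c) was 2-fold apart for genotype on chow. Equal medians turned the split for genotype on chow to 104 higher and 95 lower, beside 145 and 53, and that for diet in LASS2-/- to 495 and 189, beside 389 and 236. The genotype effect of Pck1, 0.02 log2, became -0.035 with equal medians and -0.0040 with the mean of probe sets. The cause of these changes was not tested. No paired analysis was possible because each group has 1 array, and for the same reason no replicate could be left out.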

Other observations

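Of 12 measured circadian clock genes, 2 rose with HFD (Ciart by 1.24 ± 0.36 and Dbp) and 2 fell (Arntl by 1.09 ± 0.32 and Cry1 by 0.55 ± 0.14). Over all genes 6.26% rose and 5.04% fell. The calls of Ciart, Arntl and Cry1 were kept in 1, 2 and 6 of 8 alternatives. Dbp fell with the LASS2-/- label. Dbp, a clock output factor, measured 12.59 log2 on the array labelled LASS2-/- HFD, 12.96 on WT HFD, 11.99 on LASS2-/- chow and 12.52 on WT chow, the same order of the 4 arrays as Ppp1r3c and Ppp1r3b within each diet and each genotype. The share of all genes with that order is not given here. Dbp rose with HFD by 0.52 ± 0.09 (limma adjusted p = 0.00202). It fell with the LASS2-/- label by 0.45 ± 0.09 (limma adjusted p = 0.037), a call kept in 2 of 8 alternatives. Per1 and Per2 did not pass for either. The time of day of sampling is not given in the sources used here.

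The genes whose 4 values lay nearest to those of Ppp1r3c, after each gene's mean was subtracted, were Mfap3l, Cfap54 and Gm38910, at Euclidean distances of 0.28, 0.40 and 0.45 log2. All 3 were under the array median on every array but WT HFD, so these distances rest on 3 values below the floor. For G6pc they were E030030I06Rik, Nkg7 and Lama3, at 0.11, 0.11 and 0.12. Nkg7 was under the median on both HFD arrays and E030030I06Rik on LASS2-/- HFD.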
